A study of Mus musculus with 5 samples.

Results

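The mitochondrial protein import machinery was described in CD8 T cells of one specificity, taken from a clone and from transgenic mice. Its genes were selected by symbol, as those named Timm or Tomm with a number plus Grpel1, Samm50, Pam16, Dnajc19, Pmpca, Pmpcb, Mtx1, Mtx2, Chchd4 and Gfer. For each gene the probe set with the highest mean signal over the 5 arrays was used, among probe sets annotated to a single symbol. That gave 32 genes of the 18193 with such a probe set. The choice used names and mean signals and not the difference between the groups, but the gene family was proposed with results of these arrays known, so that single genes are tested within a fit over all 18193 genes and no test is made over the family.

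Most mitochondrial proteins are made in the cytosol and cross or enter the mitochondrial membranes through dedicated complexes. The TOM complex of the outer membrane receives nearly all of them, and the SAM complex inserts barrel-shaped proteins into the same membrane. Small TIM chaperones carry hydrophobic proteins across the intermembrane space, the TIM22 complex inserts carrier proteins into the inner membrane, and the TIM23 complex with its motor pulls proteins with a cleavable presequence into the matrix, where a peptidase removes that sequence. T cells enlarge their mitochondria when they are activated, which requires import of newly made proteins.

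The arrays hold RNA of 3 separate frozen vials of G9C8, a CD8 T cell clone specific for insulin, and of spleen cultures of 2 NOD.G9C8 transgenic mice, whose T cells bear the G9C8 receptor. The mice were of the NOD/LtJ background and 4 to 8 weeks old. For 3 days both groups were given an insulin B peptide at 10 µg/ml, followed by IL2 at 5 IU/ml over another 2 days, so that no unstimulated cells were compared. The vials are draws from a single clone, and its host strain and time in culture are not stated. The labels call both groups activated CD8 T cells, and no sort of the spleen cultures is described. Differences are clone minus transgenic on the log2(signal + 20) scale, with a standard error (SE) from limma and p-values adjusted over all 18193 genes by Benjamini-Hochberg. Genes with an adjusted p under 0.05 are said to be called. Signals are quoted for transgenic arrays 1 and 2 and then for clone arrays 1 to 3.

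T cell markers were bright in both groups, with a summed signal of the 8 measured markers of 91087 and 83776 on the transgenic arrays and 65684 to 75861 on the clone arrays. Of these 8 markers Cd2, Cd3d, Cd8a and Cd8b1 were called lower in the clone, and the other 4 were not called. Of 10 myeloid markers 8 were called lower in clone, where 14.7% of all genes were called lower. The summed signal of the 10 was 14650 and 13753 on the transgenic against 5109 to 5718 on the clone arrays. Much of it came from Ctss, at 8938 and 5107 against 3699 to 3884. Adgre1 and Cd68 were not called, and Cd68 went the other way, at 399 and 546 against 570 to 828 (0.50). Lyz2, the lysozyme of macrophages and neutrophils, gave 3497 and 5549 on the transgenic and 237 to 327 on the clone arrays, and no myeloid marker was at 0 on any array. Of 7 measured B cell markers 1 was called lower, Cd79b, at 654.5 and 594 against 2.7 to 46.0, and the median difference of the list was -0.02. The part of such cells in the results below was not tested, and in cultures of this kind fewer cells of a type and less RNA per cell cannot be told apart.

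More import genes were called higher than lower in the clone. Of the 32 genes, 14 were called higher, 3 lower and 15 were not called, where 14.6% of all genes were called higher and 14.7% lower (29.3% in all). The import genes were bright: their median lay at the 82.8th percentile of mean signal, and 31 of them exceeded a mean of 88.2, the 40th percentile over probe sets. Above that level 19.8% of genes were called higher and 19.4% lower. The exception was Timm8a2, and Mtx2 exceeded the level only through its transgenic arrays. The median difference of the 32 genes was 0.28, against 0.01 over all genes. The clone arrays lay wholly above the transgenic ones for 23 genes and wholly below for 4. That is 84.4% without overlap, against 54.4% of all genes and 64.5% of those with a mean above 88.2. The number called higher was 14 without any one of the clone arrays, but 8 without the first and 9 without the second transgenic array, in fits where the remaining transgenic array is taken to vary like the clone arrays. Samm50, Timm10, Timm10b, Timm17b, Timm22, Timm23, Tomm34 and Tomm40l were no longer called without the first, where the dim Timm8a2 was newly called higher (1.22; limma adjusted p = 0.0365), and Pmpcb, Timm10, Timm10b, Timm13, Timm50 and Tomm40l without the second. The vials and mice are the only replication, and p-values cover the spread between them.

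**Figure D1:**
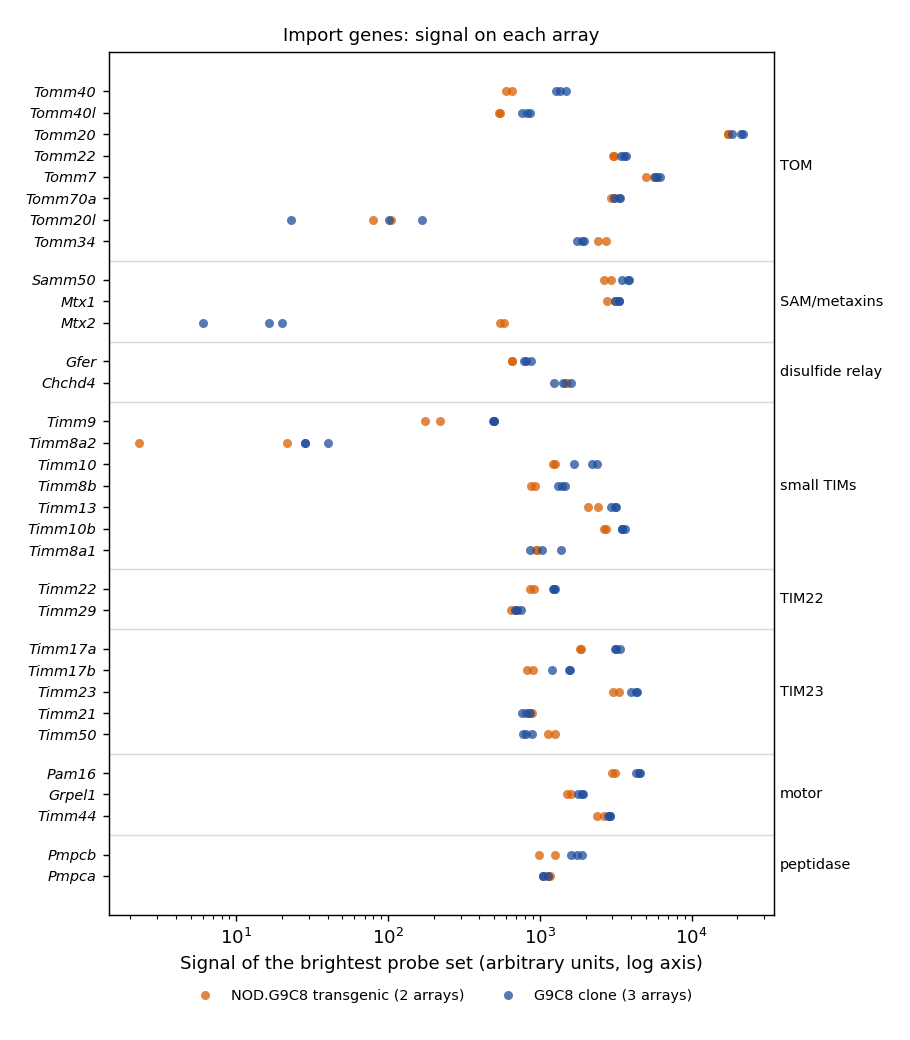
Signal of the brightest probe set (arbitrary units, log axis) of each of the 32 import genes on the 2 transgenic and 3 clone arrays, 1 point per array, arranged by complex. Mtx2 stands at 549 and 579 on the transgenic arrays and at 6.0, 16.5 and 20 on the clone arrays, while the clone points of most other genes lie slightly to the right of the transgenic ones.

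The 4 largest called differences were those of Mtx2, Timm9, Tomm40 and Timm17a. Their upstream sequences are shown because these genes carry the family's extremes in both directions. Each is the 250 bases before the annotated start site, 5′ to 3′ on the gene's own strand, from RefSeq on GRCm38.p6. Capitals mark the letters CCGGAAGT (the core bound by ETS factors), CACGTG (the E-box) or CCAAT (the CCAAT box), searched on both strands.
Mtx2, chr2:74825562-74825811, plus strand: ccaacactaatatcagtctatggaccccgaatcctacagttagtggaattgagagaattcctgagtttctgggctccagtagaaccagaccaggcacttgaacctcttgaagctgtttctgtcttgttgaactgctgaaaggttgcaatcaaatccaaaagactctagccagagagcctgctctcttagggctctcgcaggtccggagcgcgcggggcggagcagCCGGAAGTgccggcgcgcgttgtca
Timm9, chr12:71136676-71136925, minus strand: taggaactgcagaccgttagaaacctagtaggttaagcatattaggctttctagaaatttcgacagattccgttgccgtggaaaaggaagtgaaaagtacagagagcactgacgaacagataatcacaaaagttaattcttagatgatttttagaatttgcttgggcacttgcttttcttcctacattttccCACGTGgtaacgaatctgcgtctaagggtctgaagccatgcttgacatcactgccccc
Tomm40, chr7:19715430-19715679, minus strand: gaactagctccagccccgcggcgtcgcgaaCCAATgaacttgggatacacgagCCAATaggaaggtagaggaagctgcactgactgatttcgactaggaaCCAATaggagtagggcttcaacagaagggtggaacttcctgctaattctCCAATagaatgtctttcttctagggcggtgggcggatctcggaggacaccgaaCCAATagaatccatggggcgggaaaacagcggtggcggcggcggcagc
Timm17a, chr1:135313738-135313987, minus strand: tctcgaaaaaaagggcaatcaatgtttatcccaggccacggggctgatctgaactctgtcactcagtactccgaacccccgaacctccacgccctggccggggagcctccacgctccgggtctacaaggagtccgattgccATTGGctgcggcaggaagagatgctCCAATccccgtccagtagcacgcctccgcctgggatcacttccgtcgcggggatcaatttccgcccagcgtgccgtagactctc

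Windows of this kind were matched for 29 of the 32 genes. The ETS letters CCGGAAGT were found in 6 of the 29 windows, those of Mtx2, Pmpcb, Timm23, Timm29, Timm8a2 and Tomm70a, which is 20.7% against 3.23% of the 27025 genes with a window. In Mtx2 they begin 25 bases before the start site. CACGTG was found in 4 windows (Timm8a1, Timm9, Tomm20 and Tomm20l), 13.8% against 6.86% of all genes, and in Timm9 it begins 58 bases before the start site. The consensus of the respiratory regulator NRF1, searched as 1 exact string of 10 bases, was found in 0 of the 29 windows and in 0.877% of all. A string this rare would mostly be missing from 29 windows, so the 0 cannot decide whether import genes have NRF1 sites. CCAAT, added after the windows had been read, was found in 8 windows, 27.6% against 37.5% of all. The Tomm40 window holds 5 copies, as many as or more than which 0.248% of all genes have. The 27025 genes include many that were not measured here, and no share was taken over genes as bright as the import genes. Whether the shares of letters are particular to import genes was therefore not tested. A match describes letters only and shows no binding, and the letters were not tested against the differences.

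In the TOM complex, by the brightest probe sets, the pore genes were called higher and the receptor genes were not called. Dimmer probe sets did not keep to this split. Some of Tomm20 and Tomm70a were called higher, and the second of Tomm40l was not called, as given below. Tomm40 encodes the channel through which proteins cross the outer membrane. Its signal was 599 and 650.3 on the transgenic and 1348, 1283 and 1478 on the clone arrays, a difference of 1.11 (SE 0.10; limma adjusted p = 0.00036). All clone arrays were about double the transgenic level, and the groups did not overlap. Tomm40l, a paralog of the channel gene, gave 547 and 542 against 820.5, 762 and 859 (difference 0.56, SE 0.11; limma adjusted p = 0.00736). Here too each clone array exceeded both transgenic arrays, by a smaller margin.

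Tomm20, a receptor for presequences, was the brightest import gene, at 17256 and 17301 on the transgenic and 18515, 21879 and 21005 on the clone arrays. Its groups did not overlap, but the difference of 0.24 was not called (95% confidence interval -0.01 to 0.49, limma adjusted p = 0.138). Its signal lay in the upper part of the arrays' range, whose highest value was 30579. Whether differences are compressed at such signals was not tested. After quantile normalization Tomm20 was called higher (0.26; limma adjusted p = 0.0294). Tomm22, the central receptor (0.21, 0.04 to 0.39), Tomm70a, the receptor for carrier proteins (0.12, -0.07 to 0.31), and Tomm7, a small subunit involved in assembly (0.15, -0.05 to 0.35), were not called either, and their intervals leave room for a modest increase. Tomm34 differs in kind, since its product is a cytosolic co-chaperone that binds precursor proteins and is no subunit of the pore. It was lower, with 2722 and 2423 on the transgenic against 1902, 1952 and 1768 on the clone arrays (-0.45, SE 0.09; limma adjusted p = 0.0095). Tomm20l, a dim paralog of the receptor gene, ranged from 23.1 to 168 within the clone and gave no usable difference (-0.17, -1.56 to 1.22).

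In the SAM complex Mtx2 was far lower in the clone and Samm50 was higher. Mtx2 encodes metaxin 2, which works with metaxin 1 and Samm50 in the SAM complex. Its only probe set gave 549 and 579 on the transgenic and 20, 16.5 and 6.0 on the clone arrays. The groups did not overlap, and every clone signal lay far below both transgenic ones. The difference was -4.12 (95% confidence interval -4.78 to -3.45; limma adjusted p = 9.78e-05). Its size depends on the 20 added to each signal, and the deposited values do not show how far the clone signals lie from background. The probe set is of the type whose probes match several transcripts, and no second probe set of the gene was available to compare with it.

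Neither partner of Mtx2 was called lower. Samm50, whose product is the barrel that inserts other barrels, gave 2637 and 2956 against 3481, 3790.3 and 3876 and was higher (0.41, SE 0.09; limma adjusted p = 0.0142). Mtx1 was not called (0.15, -0.05 to 0.35), although its clone arrays, at 3130 to 3342, all exceeded the transgenic ones, at 2776 and 3111. The disulfide relay, which folds small proteins in the intermembrane space by oxidising them, held 2 genes, neither called. Chchd4, the oxidoreductase of the relay, was at 1512 and 1469 on the transgenic and 1413, 1232 and 1609 on the clone arrays, and the groups overlapped (-0.08, -0.37 to 0.21). Gfer, the oxidase that recharges it, had an unadjusted p of 0.0157 and an adjusted p of 0.0527 in limma (difference 0.32, 0.08 to 0.56). It was called higher after quantile normalization (limma adjusted p = 0.026) and with dim genes left out (limma adjusted p = 0.0478).

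All 7 small TIM chaperones had a positive difference, of which 5 were called higher, and their median was 0.61. Of all 18193 genes 9246 had a positive difference and 14.6% were called higher, or 19.8% of those with a mean above 88.2. Timm9, which forms a ring with Timm10, gave 174 and 219 on the transgenic and 497, 488 and 501 on the clone arrays (1.26, SE 0.16; limma adjusted p = 0.0013). The clone values were nearly equal to each other and more than double the transgenic ones. Its ring partner Timm10 gave 1267 and 1221 against 1675, 2394 and 2191 (0.72, SE 0.15; limma adjusted p = 0.0111), with a wider spread among the vials. Timm8b, which pairs with Timm13, gave 877 and 926 against 1390.5, 1317 and 1457 (0.61, SE 0.09; limma adjusted p = 0.00269).

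The brightest member of the small TIM group was Timm10b, which docks the chaperones at the TIM22 complex. It gave 2737 and 2656 against 3477, 3454 and 3629 (0.38, SE 0.07; limma adjusted p = 0.00815). Timm13 was higher by 0.44 (SE 0.09; limma adjusted p = 0.0115). The X-linked Timm8a1, an alternative partner of Timm13, was not called, and its clone arrays, from 863 to 1387, lay on both sides of the transgenic ones (0.18, -0.27 to 0.62). Timm8a2 was the dimmest gene of the family, at 2.3 to 40.2 over the 5 arrays, and was not called (adjusted p = 0.106). Timm22, the pore of the carrier translocase that these chaperones feed, gave 860.0 and 908 on the transgenic and 1245, 1218 and 1250.4 on the clone arrays and was higher (0.48, SE 0.09; limma adjusted p = 0.00601), whereas Timm29, its partner in human cells, was not called (0.09, -0.16 to 0.34).

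**Figure D2:**
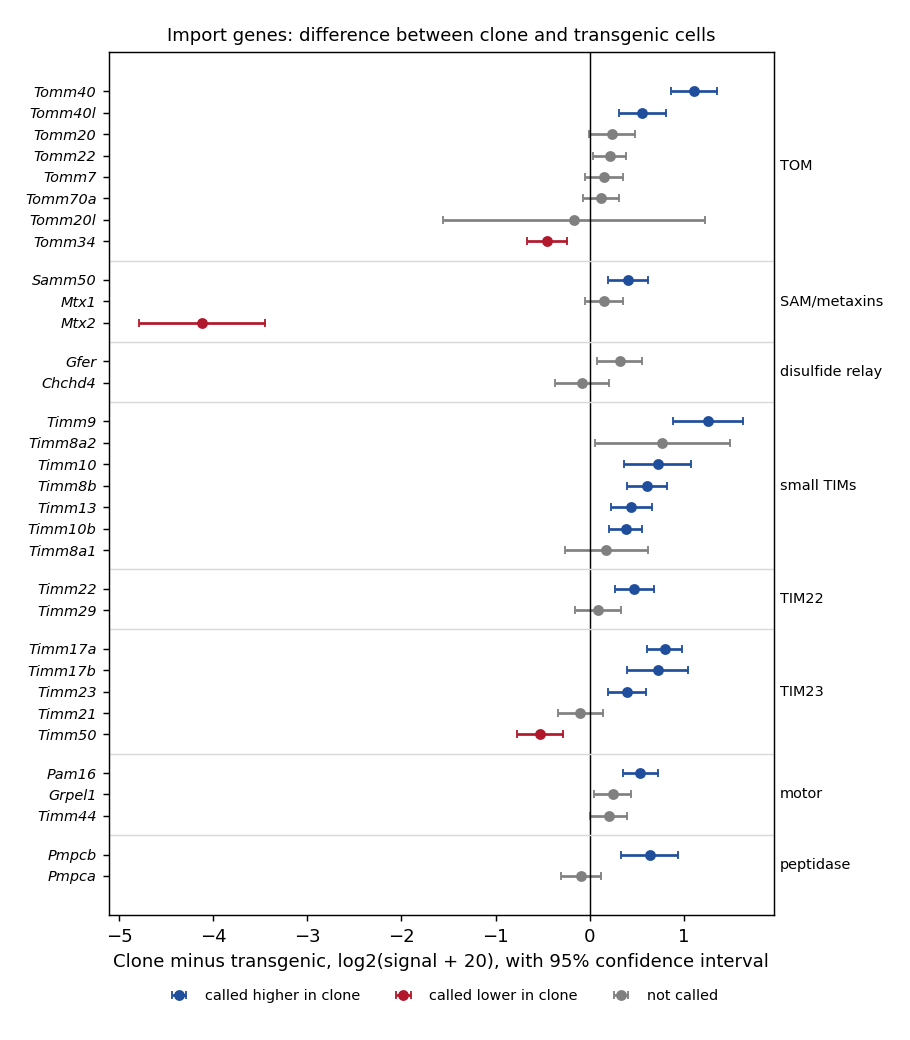
Difference of each import gene, clone minus transgenic on the log2(signal + 20) scale (x axis), as point with 95% confidence interval from limma over 3 clone and 2 transgenic arrays, arranged by complex and coloured by call. Apart from Mtx2 at -4.12 all differences lie between -0.53 and 1.26.

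In the TIM23 presequence translocase 3 of 5 genes were called higher, 1 lower and 1 not, beside 14.6% and 14.7% of all genes called higher and lower. Timm17a, a channel subunit, gave 1855 and 1842 on the transgenic and 3194, 3117 and 3383 on the clone arrays (0.80, SE 0.08; limma adjusted p = 0.000432). Its X-linked paralog Timm17b gave 829 and 899.9 against 1558, 1209.7 and 1577 (0.72, SE 0.14; limma adjusted p = 0.00703). Both paralogs stood above the transgenic level on every clone array. Timm23, the other core subunit, gave 3028 and 3345 against 4272, 3989 and 4355 (0.40, SE 0.09; limma adjusted p = 0.0122). Timm21, which links the translocase to the TOM complex, was not called (-0.10, -0.34 to 0.14). Timm50, the receptor that hands precursors to the channel, was called lower by its brightest probe set, at 1138 and 1258 against 776, 883 and 812 (-0.53, SE 0.10; limma adjusted p = 0.00852), but its next probe set went the other way, as given below.

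The motor and the peptidase each had a member called higher. Pam16, a regulator of the motor's heat shock protein, gave 3141 and 2969.7 on the transgenic and 4278, 4480.3 and 4591 on the clone arrays (0.54, SE 0.08; limma adjusted p = 0.00231). Timm44, the scaffold of the motor (0.20, 0.01 to 0.40; limma adjusted p = 0.116), and Grpel1, its nucleotide exchange factor (0.25, 0.05 to 0.44; limma adjusted p = 0.0683), were not called, although in both genes every clone array exceeded both transgenic arrays. Pmpcb, the catalytic subunit of the processing peptidase, gave 1256 and 988 against 1758, 1600.5 and 1888 (0.64, SE 0.13; limma adjusted p = 0.00929). Pmpca, the other subunit of the peptidase, was not called with its brightest probe set (-0.09, -0.30 to 0.12).

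Among paralogs and related genes, Tomm40 differed by 1.11 and Tomm40l by 0.56, Timm17a by 0.80 and Timm17b by 0.72, Timm8b by 0.61 and Timm8a1 by 0.18, and Timm10 by 0.72 and Timm10b by 0.38. Differences between the genes of a pair were not tested, and levels of different probe sets cannot be compared with each other.

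The 18 genes with more than 1 probe set offer 32 further probe sets that did not choose the members, measured on the same arrays. In a fit over all 34945 probe sets of a single symbol, 13 of the 32 were called higher and 2 lower, where 13.1% and 14.2% of all probe sets were. Some of the 13 measure the same gene, as in Timm10b, Tomm20 and Tomm7, and are not separate results. No share was taken over probe sets of like brightness. Several genes that were not called by their brightest probe set were called by a dimmer one. For Tomm7 the second probe set gave 1162 and 1394 on the transgenic and 3549, 3027 and 3257 on the clone arrays. Its difference was 1.35 (SE 0.11, limma adjusted p = 0.000314), against 0.15 for the brightest. Both are of the _x_at class, which is prone to cross-hybridization. The third Tomm7 probe set was called higher (0.84), and the fourth went the other way and was not called (-0.33). For Tomm20 the fourth of 6 probe sets in order of brightness differed by 1.20 (limma adjusted p = 0.00043), another by 0.41 (limma adjusted p = 0.0116), and the other 4 were not called. For Pmpca the second differed by 0.50 (limma adjusted p = 0.00881), the opposite sign to the brightest. Mtx1 (0.44) and Timm8a1 (0.47) were also called higher by their second probe set.

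In 2 genes probe sets were called in both directions. Timm50 was lower by its brightest (-0.53) and its dimmest probe set (-1.92), but its second gave 539 and 506 on the transgenic and 819.8, 818 and 1008 on the clone arrays and was called higher (0.73, SE 0.13; limma adjusted p = 0.00605). Tomm70a was higher by its second (0.77; limma adjusted p = 0.00076) and lower by the next in brightness (-0.41; limma adjusted p = 0.0279). These arrays do not settle a direction for Timm50 or Tomm70a. Timm22, called higher, had a dim second probe set at -0.36 that was not called, and for Timm17b the call rests on an _x_at probe set, a class prone to cross-hybridization, the other probe set giving 0.20 (limma adjusted p = 0.321). The second probe sets of Timm9 (0.68; limma adjusted p = 0.0724) and Tomm40l (0.30; limma adjusted p = 0.329), both called higher by their brightest, were not called. Samm50 (0.52), Timm10b (0.53) and Pmpcb (1.41) were called higher by their second probe set as well, which for Timm10b and Pmpcb is also an _x_at probe set. The brightest Samm50 probe set is itself of that class. The third of Timm10b was called higher too (0.63). The dimmest probe sets of Samm50 (-0.51) and Timm10b (-0.77) went the other way and were not called.

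**Figure D3:**
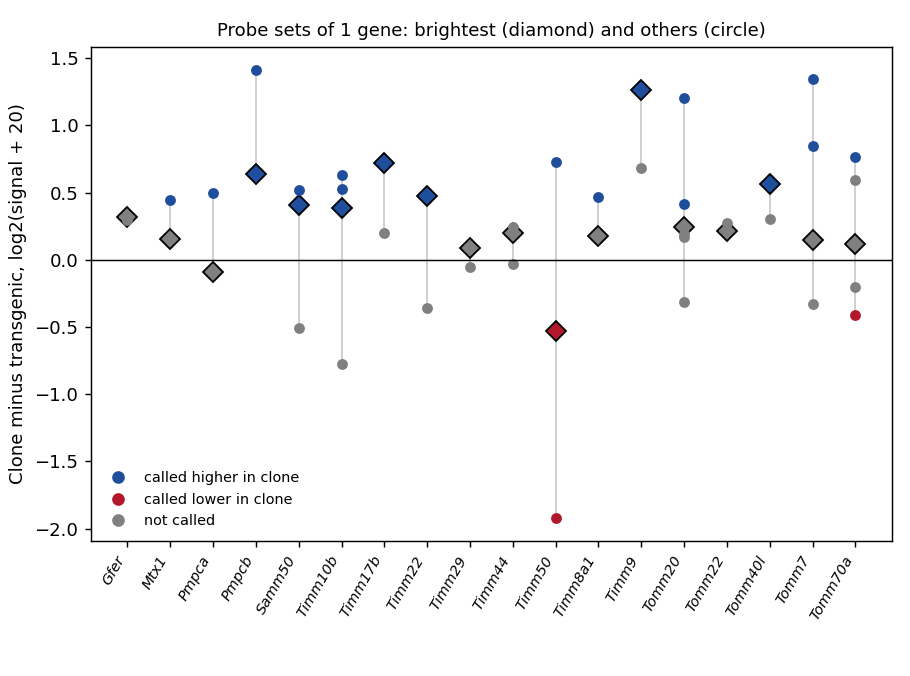
Difference, clone minus transgenic on the log2(signal + 20) scale (y axis), of every probe set of the 18 import genes that have more than 1, with the brightest as a diamond, the others as circles and colours for the call in the fit over all probe sets. Timm50 and Tomm70a have probe sets called in opposite directions, from -1.92 to 0.73 and from -0.41 to 0.77.

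Of 21 measured other genes of mitochondrial import, folding and quality control, 9 were called higher, 2 lower and 10 not, with a median of 0.34, beside the 14.6% and 14.7% of all genes called higher and lower. Hspa9, the heat shock protein that drives the import motor, gave 1612 and 1623 on the transgenic and 3421, 3216 and 3730.2 on the clone arrays (1.08, SE 0.09; limma adjusted p = 0.000217). Lonp1 (0.87) and Clpp (0.77), proteases of the matrix, Htra2, a protease of the intermembrane space (0.70), and Romo1, a small inner membrane protein (0.71), were also higher. Dnaja3, a co-chaperone of Hspa9, was lower (-0.73).

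Genes of 2 other mitochondrial systems were also mostly called in the same direction when they were called. Of 76 mitochondrial ribosomal protein genes 40 were called higher and 2 lower, with a median of 0.38. Of 86 nuclear respiratory chain genes 39 were higher and 4 lower, with a median of 0.26. Among all genes 14.6% were called higher and 14.7% lower, and among those with a mean above 88.2 the shares were 19.8% and 19.4%. Both lists were bright, with medians at the 85.3rd and 96.1st percentiles of mean signal, and 84.2% and 79.1% of their genes had no overlap. The difference between these lists and the import genes was not tested. Over the import genes the second clone array deviated from the mean of the other 2 by a median of -0.03, with 14 above and 18 below. That median describes a common shift and not the spread of single genes, and Timm8a1 ranged from 863 to 1387 within the clone. The 19 measured cell cycle genes were all lower on the second clone array, by a median of -0.70. Between the groups 5 of these 19, or 26.3%, were called higher in the clone, beside 19.8% of all genes with a mean above 88.2. The other 14 were not called, and the median of the 19 was 0.52. The part of the cell cycle genes in the import genes' differences was not tested. The second transgenic array differed from the first by a median of -0.02 over the import genes and of 0.50 over the myeloid markers.

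**Figure D4:**
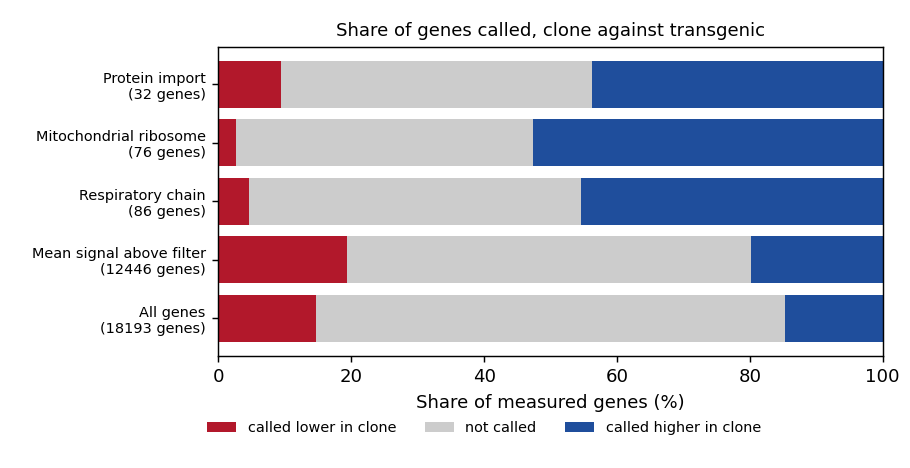
Share of measured genes (x axis, percent) called lower, not called and called higher in clone, for the 32 import genes, 76 mitochondrial ribosomal protein genes, 86 respiratory chain genes, the 12446 genes with a mean signal above 88.2 and all 18193 genes. Each of the mitochondrial lists has a larger blue segment than both backgrounds, of which 19.8% and 14.6% are called higher.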

How the data were processed

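Total RNA of 5 cultures (8 µg each) was measured on one-colour Affymetrix arrays with 45101 probe sets. The deposited values are linear array intensity, 1 signal per probe set, made with GCOS per the submitters' processing notes, version not given. The values show that each array was scaled, since the 2% trimmed mean is 500.0 on all 5 arrays, and they were used as deposited. They hold no detection calls, and the number of arrays limits the precision. Groups come from the sample titles. Symbols are those of the platform annotation: 34945 probe sets carry 1 symbol, 932 several and 9160 none, and 64 controls were left out.

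The brightest probe set stood for each of 18193 genes, with no filter, as log2(signal + 20). The two-sided test was that of limma 3.58.1 under R 4.3.3 (lmFit, then eBayes with a mean-variance trend), adjusted by Benjamini-Hochberg over all genes and tested on simulated data. Promoter windows come from RefSeq (GRCm38.p6). Full values are given for called members with a difference of at least 0.5 and the brightest of each complex; for other listed genes, for the 6 largest called differences. The members and lists were chosen with earlier results of these data known. A protein motif search was not made. Other settings tried were pseudocounts of 1 and 50, quantile normalization, a filter on dim genes, averaging probe sets, leaving out _x_at probe sets, no trend, a replicate block, and leaving out single arrays. Use of the second brightest probe set was chosen after seeing the data. Figures used matplotlib 3.10.9.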

Additional observations from a re-analysis of the deposited data

Results flagged for a closer look

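Among the genes named by the rule, 3 have no probe set of their own, because each such probe set also carries another symbol, and they stand outside the comparison above. Their brightest shared probe sets gave a signal above the transgenic level on every clone array. Dnajc19, the J protein of the import motor, shares its probe sets with a pseudogene. The brightest gave 1732 and 1663 on the transgenic and 2612, 2464 and 2723 on the clone arrays (0.61 on the log2 scale). The dimmer Dnajc19 probe sets went the other way (-0.28 and -0.53), with overlapping groups, and were not called. Tomm6, a small TOM subunit, shares with Prickle4 and gave 3419 and 4257 against 5973, 5312 and 6285 (0.61). Tomm5, another small TOM subunit, shares with Gm8069 and gave 2974 and 3409 against 3454, 4000.2 and 3795 (0.23; not called, limma adjusted p = 0.161). Which of the paired genes gave the signal was not tested.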

How the results depend on the processing

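Among all genes 5337 were called, with 4353 to 5448 under the 7 settings that change neither the arrays nor the design, and 3099 to 5234 with 1 array left out, the lowest without the first transgenic array and 3438 without the second. Import genes called higher numbered 10 to 16 under those 7 settings and 8 to 14 with 1 array left out (8 without the first and 9 without the second transgenic array). Those called lower numbered 2 or 3 throughout. The median of the import genes was 0.25 to 0.35 under these settings and leave-outs, beside medians of all genes between -0.01 and 0.04. No called difference changed sign under the planned settings. Without the trend Samm50, Timm10b, Timm13, Timm23 and Tomm34 were no longer called, and without _x_at probe sets Timm17b (0.20), while Tomm7 was then called higher (0.84). With the mean over probe sets Samm50, Timm10b and Timm22 lost their calls, and Mtx1, Tomm20, Tomm22 and Tomm7 gained one. Gfer and Tomm20 gained a call under quantile normalization, Gfer also under the filter, and Timm8a2 without the first transgenic array. With the second brightest probe set the sign turned for 5 genes: Pmpca (0.50), Timm50 (0.73) and, not called, Timm22 (-0.36), Timm29 (-0.05) and Timm44 (-0.03). The replicate numbers pair nothing in the labels, and the deviations of same-numbered arrays correlated at -0.03 over genes; with the replicate block 4153 genes were called, and 11 import genes were called higher and 2 lower, with a median of 0.28. Only the clone has a replicate 3, so the block takes up that array, and the differences equal those without it. The cause of lost calls was not tested, except that leaving out arrays lowers the number of samples. Without detection calls, the level of Mtx2 in the clone and of Timm8a2 in both groups is a dim signal of unknown distance from background.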

Other observations

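Neighbours of Mtx2 on the chromosome were read after its difference had been seen. In the RefSeq gene order the next measured genes on one side are Nfe2l2, encoding a regulator of the oxidative stress response, and Agps, an enzyme of ether lipid synthesis. Nfe2l2 gave 1698 and 1632 on the transgenic and 759.5, 572 and 531 on the clone arrays (-1.41; limma adjusted p = 0.000775), and Agps gave 999.5 and 1065 against 483, 573 and 573 (-0.91; limma adjusted p = 0.00166). On the other side lie genes of the Hoxd cluster, of which the nearest 6 had signals of at most 126 on all arrays; Hoxd10 alone among them was called (higher, 0.92; 1.9 and 9.0 against 29.8, 27.9 and 25.9). On the side of Agps the sixth measured gene from Mtx2, Pde11a, was called higher (1.49; limma adjusted p = 0.00942), and the 3 between it and Agps were not called. Beside these calls, 14.6% of all genes were called higher in the clone and 14.7% lower. Whether Mtx2, Nfe2l2 and Agps share anything was not tested.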
